A study of Mus musculus with 12 samples.

Results

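The 9 genes described here encode the Kv1 family of voltage-gated potassium channels in the mouse brain, 6 pore-forming alpha subunits (Kcna1 to Kcna6) and 3 auxiliary Kv beta subunits (Kcnab1 to Kcnab3). They were taken by gene name from a table of read counts with 21643 rows, in which each of the 9 names has a row, and all 9 passed the filter on low counts and were tested. The counts come from bulk RNA sequencing of 12 brains labelled as whole brain, 1 mouse per library, with 3 mice in each of 4 groups named Control, PBS, ShK-223 and PAP-1. All 12 mice, the Control group included, carried the 5xFAD genotype, an amyloid model in which human transgenes with familial Alzheimer's disease mutations are driven by the neuronal Thy1 promoter. The blockers differ in kind: PAP-1 is a small molecule and ShK-223 a peptide modelled on a toxin of sea anemones. Their shared target is Kv1.3, the channel that Kcna3 encodes. The sources used here state neither strain, age, dose, route and duration nor how Control differs from PBS. Nothing in the labels describes a mouse without the transgenes.

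A Kv1 channel is a tetramer of alpha subunits, alike or mixed, that opens on depolarisation and lets potassium leave the cell. In neurons Kv1.1, Kv1.2 and Kv1.4 are found mainly along axons and near terminals, where they limit excitability and transmitter release, and loss of Kv1.1 causes seizures in mice and episodic ataxia in people. Kv beta subunits bind the cytoplasmic side of the tetramer, help it reach the axon and, in the case of Kv beta 1, speed its inactivation. Kv1.3 is best known from T cells and microglia, where it holds the membrane potential negative and so sustains calcium entry, and it is also found in some neurons.

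The peptide toxins of the ShK family plug the outer mouth of the pore, next to the selectivity filter. The stretch of each alpha gene that codes for this mouth is therefore shown, read from the GRCm38 genome at the coding exons of GENCODE M21, on the coding strand, 5′ to 3′. Each run has 75 bases, 10 codons before the filter and 9 after it, and the capitals mark the 18 bases that code for the 6 residues of the potassium selectivity filter. Kcna3 lies on the plus strand and its stretch is at chr3:107037581-107037655. Kcna1 (chr6:126642198-126642272), Kcna5 (chr6:126533715-126533789) and Kcna6 (chr6:126738617-126738691) lie on the minus strand. Kcna2 (chr3:107105194-107105268) and Kcna4 (chr2:107296465-107296539) lie on the plus strand.
Kcna3: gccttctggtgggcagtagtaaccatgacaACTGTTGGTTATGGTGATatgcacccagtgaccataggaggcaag
Kcna1: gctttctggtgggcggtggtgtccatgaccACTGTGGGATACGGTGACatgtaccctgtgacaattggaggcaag
Kcna2: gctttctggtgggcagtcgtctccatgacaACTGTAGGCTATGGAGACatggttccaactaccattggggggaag
Kcna4: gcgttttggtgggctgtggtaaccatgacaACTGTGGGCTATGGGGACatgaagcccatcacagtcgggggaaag
Kcna5: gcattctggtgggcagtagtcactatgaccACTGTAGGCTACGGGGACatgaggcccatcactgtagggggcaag
Kcna6: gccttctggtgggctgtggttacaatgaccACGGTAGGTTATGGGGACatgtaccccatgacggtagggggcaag
Against Kcna3, 61 of the 75 bases were the same in Kcna1, 60 in Kcna6, 58 in Kcna2, and 57 each in Kcna4 and Kcna5. Within the filter, 14 of 18 bases were shared with Kcna3 in every other gene except Kcna5, which shared 13. All 6 genes code for the same 6 residues there, so these base differences do not change the filter itself. In the 27 bases after the filter, Kcna1 shared 23 with Kcna3, Kcna6 shared 21, Kcna2 and Kcna5 shared 18, and Kcna4 shared 17. The 6 genes are thus alike but not identical at the DNA level over this stretch. The sources used here do not say how reads that map to more than 1 gene were counted. Whether any read mapped to more than 1 of these 6 was not tested.

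Libraries differed in brain region. Total counts ran from 14364013 to 19048551 per library. A cerebellar index, the mean over 16 cerebellar marker genes of a library's level divided by the level in the highest library, was 0.822 to 0.990 in the 3 PBS libraries and Control 2. PAP-1 1 had an index of 0.194, and the remaining 7 libraries had 0.0418 to 0.0537. The summed level of the 16 markers was 10900 to 11780 CPM (counts scaled by library total) in PBS, 1194 to 10420 in Control, 792.5 to 1351 in ShK-223 and 855 to 2438 in PAP-1. So 7 libraries labelled whole brain held little cerebellar transcript, and all 3 PBS libraries held much. Control 2, the 1 library outside PBS with a similarly high index, is therefore given beside PBS for the genes that differed. In the deposited counts, Control 2 carries another lane number than the one that all other libraries share, and no reason was stated. Whether its group label is right was not tested. Forebrain excitatory neuron markers ran the other way, from 1302 to 2973 CPM in PBS and from 4923 to 6499 CPM in the ShK-223 and PAP-1 libraries. The 12 microglial markers summed to 221 to 468 CPM in PBS, 330.1 CPM in Control 2, 1307 and 920.1 CPM in both other Control libraries, and 656 to 905 CPM in the treated ones. Since this is bulk tissue, fewer cells of a type and less RNA per cell cannot be told apart in any value given here.

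Per kilobase of annotated exon, which is the scale on which genes can be compared with each other, Kcnab2 was the most abundant of the 9, at 73.3 CPM per kb averaged over the 12 libraries. Kcna2 followed at 36.9 CPM per kb, Kcna1 at 22.1, Kcnab3 at 19.1, Kcna6 at 14.5 and Kcnab1 at 11.4. Kcna4 was at 4.44 CPM per kb, and Kcna3 and Kcna5 were lowest, at 1.73 and 1.28. The exon length of Kcna3 in this annotation is 1902 bases, against 11906 for Kcna2, so the order depends on annotated ends. It also differed between groups. In PBS, Kcna2 was at 48.32 CPM per kb and Kcnab2 at 43.82, and Kcna4 was at 1.225 and Kcna3 at 1.277. In Control, Kcna5 was at 2.196 CPM per kb and Kcna3 at 1.664. Across the 12 libraries the highest level over the lowest was 1.46 for Kcna6, 2.03 for Kcna3, 2.79 for Kcna1, 9.76 for Kcna4 and 28.9 for Kcna5.

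**Figure D1:**
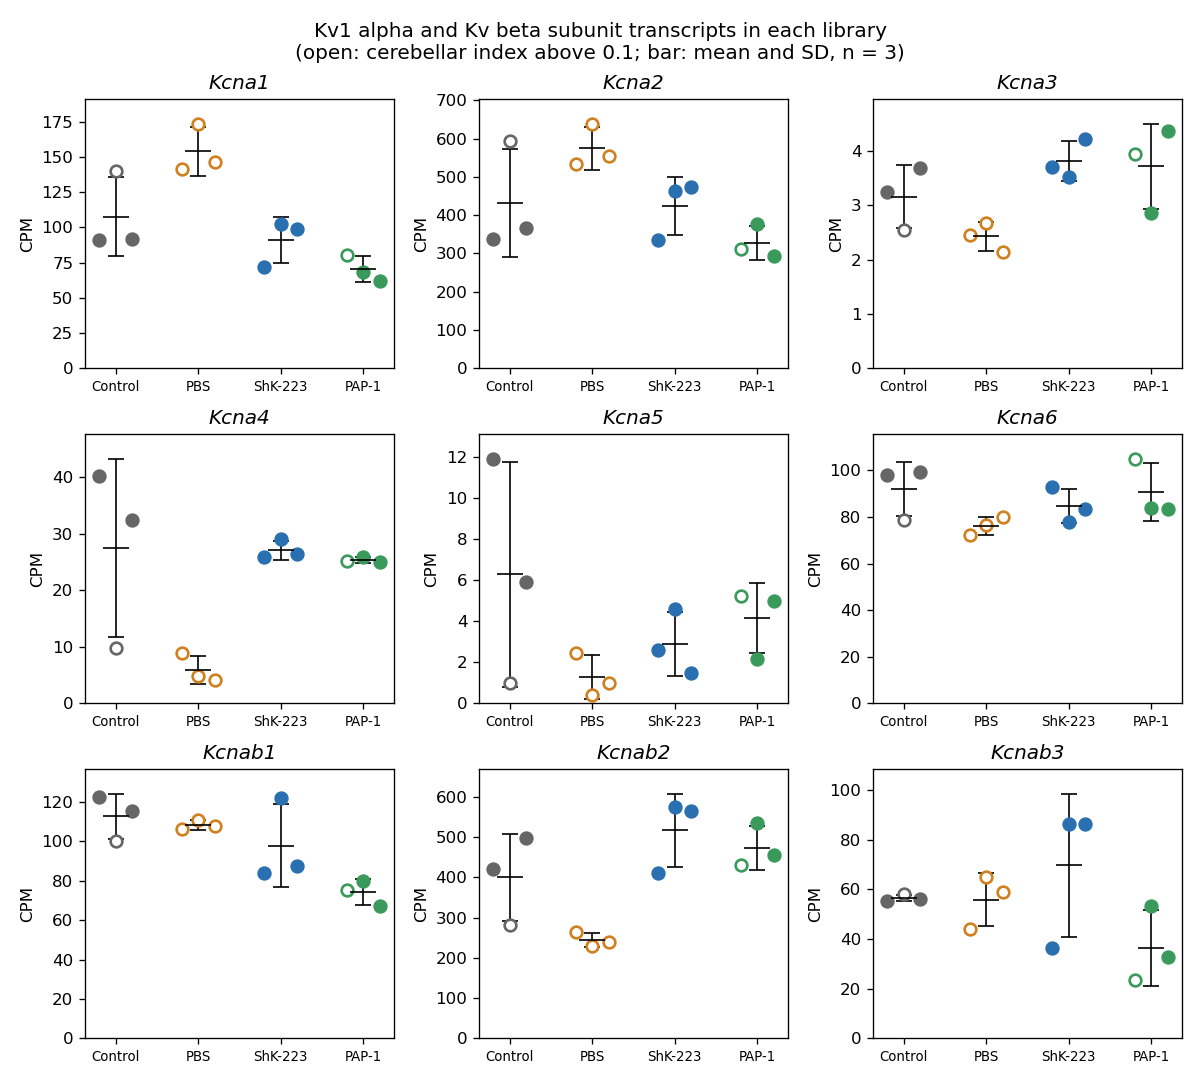
Level of each subunit gene in CPM (linear axes from 0) in the 4 groups, with 1 point per library, and the mean and SD of 3 libraries as a bar. Open points are the 5 libraries with a cerebellar index above 0.1, and for Kcna1, Kcna2, Kcna3, Kcna4 and Kcnab2 the open Control point lies nearer to PBS than the other Control points do.

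Kcna3, the gene of the drug target, was a low transcript everywhere and lowest in PBS. It was at 2.45, 2.68 and 2.15 CPM in PBS, from 35 to 40 reads per library. Control libraries 1 to 3 were at 3.24, 2.56 and 3.70 CPM, ShK-223 libraries at 3.71, 3.53 and 4.23 CPM, and PAP-1 libraries at 3.94, 2.86 and 4.37 CPM. Every treated library lay above every PBS library, and Control 2 fell inside the PBS range while Control 1 and 3 lay inside the range of the treated ones.

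By edgeR's quasi-likelihood test, Kcna3 rose by 0.65 on the log2 scale in ShK-223 against PBS (SE 0.22, adjusted p = 0.0394, 95% interval 0.16 to 1.15), where 39.1% of all genes tested were called. In PAP-1 against PBS it rose by 0.62 (SE 0.22, adjusted p = 0.0453, 95% interval 0.12 to 1.11), where 43.7% of all genes were called. Both calls were close to the threshold: the first held in 5 of 12 fits that each left out 1 library and the second in 3 of 12. Leaving out any 1 of the PBS or ShK-223 libraries, or Control 1, ended the ShK-223 call, with log2 fold changes of 0.57 to 0.74 and adjusted p of 0.0514 to 0.122. The PAP-1 call was lost without any 1 library other than Control 2, Control 3 or PAP-1 2, with log2 fold changes of 0.48 to 0.70 and adjusted p of 0.0512 to 0.154. Within batch CH, the 2 ShK-223 libraries stood 0.54 above the 1 PBS library (log2), and within batch C, PAP-1 2 stood 0.30 above the 2 PBS libraries. With the cerebellar index as a term the differences were 0.22 (SE 0.42, edgeR adjusted p = 1.0) for ShK-223 and 0.20 (SE 0.40, adjusted p = 0.921) for PAP-1.

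Against Control, no difference in Kcna3 passed the test. It was 0.27 on the log2 scale for ShK-223 (95% interval -0.21 to 0.76), 0.23 for PAP-1 (-0.25 to 0.72) and -0.38 for PBS (-0.88 to 0.11). Counting error on so few reads is wide: as a share of all alpha-subunit reads, Kcna3 took 0.273% (exact binomial 95% interval 0.190% to 0.380%) in PBS 3 and 0.926% (0.731% to 1.16%) in PAP-1 3, the lowest and highest libraries. In Control 2 the share was 0.309%, within the PBS range of 0.273% to 0.322%, and in the other 8 libraries it was 0.509% to 0.926%. These intervals cover counting error only.

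Of the cells in which Kv1.3 is best known, microglial markers were, like Kcna3, lowest in PBS and Control 2, and T cell markers were scarce. The other libraries did not keep a shared order. Control 1 had the highest microglial sum, 1307 CPM, with Kcna3 at 3.24 CPM, and PAP-1 3 had the most Kcna3, 4.37 CPM, with a sum of 684 CPM. Forebrain excitatory neuron markers were lowest in the same libraries, with 7 of 8 called higher in each blocker against PBS. Among 12 microglial markers, 10 were higher in ShK-223 than in PBS and 6 in PAP-1 than in PBS by the same test, beside 18.8% and 21.1% of all genes called higher. In PBS against Control none of the 12 was called, but all 12 had an unadjusted p under 0.05, with a median log2 fold change of -1.37. None was called in either blocker against Control. The T cell list, of which 10 of 12 genes had a row, summed to 2.75 to 5.88 CPM in PBS, 3.37 to 33.9 in Control, 7.42 to 21.8 in ShK-223 and 4.34 to 9.20 in PAP-1, most of it Cd4 in the highest libraries. Cd3e, a defining chain of the T cell receptor complex, was at most 0.600 CPM, with 11 reads in its highest library, and Cd3d had at most 5 reads. Cd4, which cells other than T cells also carry, reached 29.6 and 23.7 CPM in Control 1 and 3 and 19.3 and 11.3 CPM in ShK-223 2 and 3, and lay between 0.275 and 2.57 CPM elsewhere. The part of microglial content in the Kcna3 difference was not tested.

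Kcna1 and Kcna2, the principal axonal alpha subunits Kv1.1 and Kv1.2, were highest in PBS and Control 2. Kcna1 was at 141, 174 and 147 CPM in PBS, and at 91.1, 140.3 and 91.5 CPM in Control. ShK-223 libraries were at 72.2, 102.3 and 98.5 CPM, and PAP-1 libraries at 80.5, 68.4 and 62.2 CPM. All 6 treated libraries lay below all 3 PBS libraries, and Control 2 lay just under the lowest PBS library.

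Kcna1 fell by 0.76 on the log2 scale in ShK-223 against PBS (SE 0.19, edgeR adjusted p = 0.0137) and by 1.13 in PAP-1 against PBS (SE 0.19, adjusted p = 0.00322). Within batch CH the ShK-223 difference was -1.04 and within batch C the PAP-1 difference was -1.07. Without PBS 2, the PBS library with the most Kcna1, the ShK-223 call was lost at a log2 fold change of -0.66 (edgeR adjusted p = 0.0524). With the cerebellar index as a term, the ShK-223 difference was 0.03 and the PAP-1 difference -0.39, neither called.

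Kcna2 followed the same order of groups. PBS libraries were at 533, 639 and 554 CPM and Control libraries at 338, 595 and 366 CPM. ShK-223 libraries were at 336, 463 and 473 CPM and PAP-1 libraries at 313, 378 and 292 CPM. The treated libraries lay below PBS without overlap. In PAP-1 against PBS it fell by 0.81 on the log2 scale (SE 0.22, edgeR adjusted p = 0.0142), and in ShK-223 against PBS the difference of -0.44 (SE 0.21, 95% interval -0.92 to 0.04, adjusted p = 0.124) did not pass. The PAP-1 call was lost without PBS 2 (-0.73, adjusted p = 0.0513) and without PAP-1 3 (-0.74, adjusted p = 0.0521), and also with batch as a term (-0.70, adjusted p = 0.0731). Within batch C the PAP-1 difference in Kcna2 was -0.52.

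Kcna4, which encodes the fast-inactivating Kv1.4 of axons and terminals, had the widest called difference of the family. PBS libraries were at 8.82, 4.82 and 4.12 CPM. ShK-223 libraries were at 25.8, 29.0 and 26.5 CPM and PAP-1 libraries at 25.2, 25.9 and 24.9 CPM, so the 6 treated libraries were close together and far above PBS. Control split, with 40.2 and 32.4 CPM in libraries 1 and 3 and 9.82 CPM in Control 2, just above the highest PBS library.

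On the log2 scale Kcna4 rose by 2.19 in ShK-223 against PBS (SE 0.44, edgeR adjusted p = 0.00751) and by 2.09 in PAP-1 against PBS (SE 0.44, adjusted p = 0.00621). Both calls held in all 12 fits that left out 1 library, though the ShK-223 call was lost with batch as a term (edgeR adjusted p = 0.0785). The left-out fits gave log2 fold changes of 1.98 to 2.60 and 1.89 to 2.50. Within batch CH the ShK-223 difference was 2.41 and within batch C the PAP-1 difference was 2.08. With the cerebellar index as a term they were 0.05 (SE 0.40) and 0.08 (SE 0.38), neither called.

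Kcna4 was also the only member called in PBS against Control, where it fell by 2.21 (SE 0.44, edgeR adjusted p = 0.0383) and where 5.02% of all genes tested were called. That call held in the fits without Control 2, PBS 1, ShK-223 1 or PAP-1 1, and was lost in the other 8 of 12 (adjusted p of 0.0611 to 0.178). Without Control 2 the log2 fold change was -2.61 (adjusted p = 8.92e-05). The difference between PBS and Control was -0.69 within batch C, which holds Control 2, and -2.72 within batch CH, which holds Control 3. Against Control, Kcna4 differed by -0.02 in ShK-223 (95% interval -0.93 to 0.89) and by -0.12 in PAP-1 (-1.03 to 0.80), neither called.

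Kcna5 and Kcna6 gave no call. Kcna5, whose product Kv1.5 is found in heart, vessels and microglia, had 6 to 184 reads per library. Control libraries 1 to 3 were at 11.9, 0.988 and 5.94 CPM and PBS libraries at 2.45, 0.413 and 0.983 CPM. ShK-223 libraries were at 2.62, 4.59 and 1.50 CPM and PAP-1 libraries at 5.25, 2.17 and 5.01 CPM. All 4 groups overlapped, and Control alone spanned most of the range. The difference was 1.16 for ShK-223 against PBS (95% interval -0.71 to 3.03) and 1.67 for PAP-1 against PBS (-0.20 to 3.55), so the data bound it only loosely.

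Kcna6, which encodes Kv1.6, a subunit of mixed channels with Kv1.1 and Kv1.2, was the steadiest of the 9. Its libraries ranged from 72.2 to 79.9 CPM in PBS, from 78.9 to 99.3 CPM in Control, from 78.01 to 92.7 CPM in ShK-223 and from 83.3 to 105.0 CPM in PAP-1. The PBS range met the ShK-223 and Control ranges and lay below that of PAP-1. The difference was 0.15 for ShK-223 against PBS (SE 0.12, 95% interval -0.11 to 0.42, edgeR adjusted p = 0.329) and 0.25 for PAP-1 (SE 0.12, -0.02 to 0.52, adjusted p = 0.115).

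**Figure D2:**
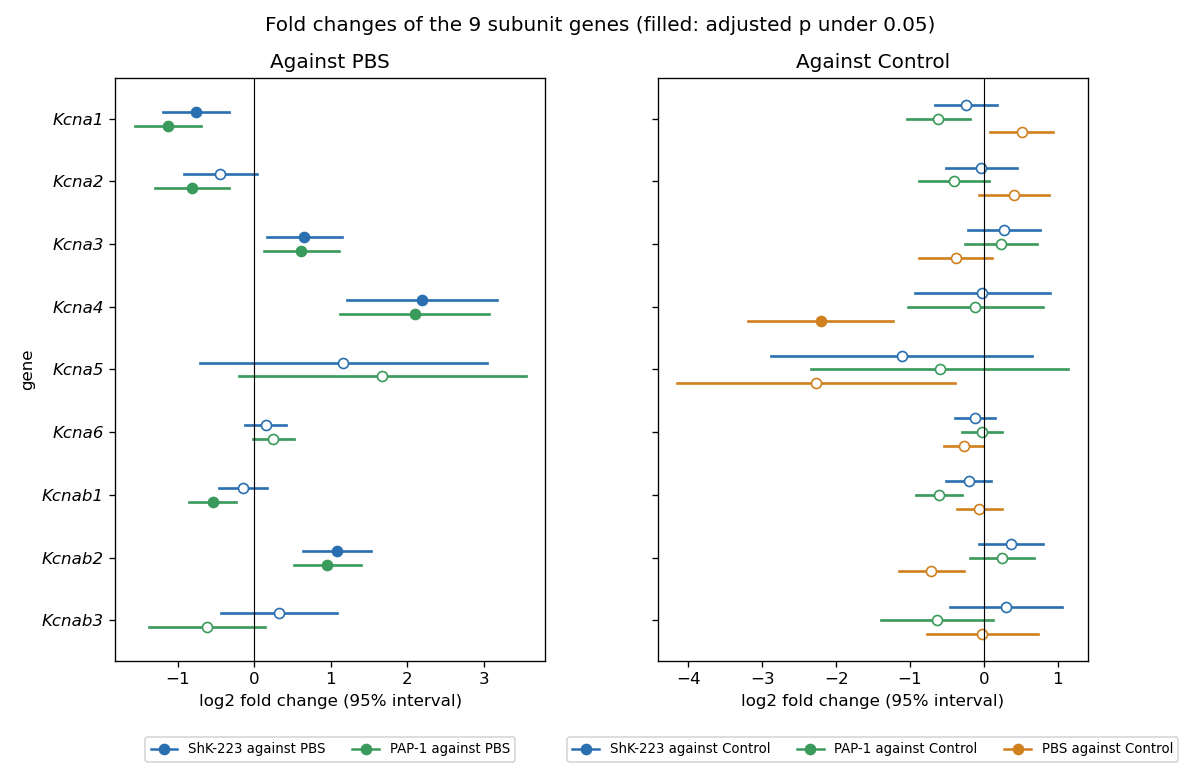
Log2 fold changes of the 9 genes (x axis) against PBS on the left and against Control on the right, with 95% intervals from edgeR; filled points passed an adjusted p of 0.05. Kcna4 and Kcnab2 lie to the right of 0 and Kcna1 to its left for both blockers against PBS, and on the right the 1 filled point is Kcna4 in PBS.

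Among the auxiliary subunits, Kcnab2, the most abundant Kv beta in brain and a partner in axonal targeting, was lowest in PBS. PBS libraries were at 264, 230.3 and 239 CPM. Control libraries were at 419.9, 282 and 498 CPM, ShK-223 libraries at 412, 574 and 564 CPM, and PAP-1 libraries at 431, 536 and 455 CPM. Control 2 again lay nearest to PBS, and every treated library lay above every PBS library.

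Kcnab2 rose by 1.08 on the log2 scale in ShK-223 against PBS (SE 0.20, edgeR adjusted p = 0.00594) and by 0.96 in PAP-1 against PBS (SE 0.20, adjusted p = 0.00592). Both calls held in all 12 fits that left out 1 library, though the ShK-223 call was lost with batch as a term (edgeR adjusted p = 0.0689). Within batch CH the ShK-223 difference was 1.07 and within batch C the PAP-1 difference was 1.09. With the cerebellar index as a term they were 0.25 and 0.17, neither called. In PBS against Control the difference was -0.71 (SE 0.20, adjusted p = 0.0596). Its gene overlaps Nphp4 on the opposite strand, and the sources used here do not say whether counting used strand.

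Kcnab1, whose product Kv beta 1 confers fast inactivation on Kv1.1 and Kv1.2, showed another order. PAP-1 libraries were at 75.6, 80.2 and 67.2 CPM, and PBS libraries at 106, 111 and 108 CPM. Control libraries were at 123, 100.3 and 115 CPM, and ShK-223 libraries at 83.8, 122 and 87.7 CPM. PAP-1 lay below all 9 other libraries. It fell by 0.54 in PAP-1 against PBS (SE 0.14, edgeR adjusted p = 0.0125), a call that held in all 12 fits leaving out 1 library, and within batch C the difference was -0.42. In ShK-223 against PBS the difference was -0.15 (SE 0.14, 95% interval -0.45 to 0.16).

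Kcnab3, which encodes the third Kv beta, was close together in Control and spread out in the other groups. It was at 36.6 CPM in ShK-223 1 but 86.3 CPM in both other ShK-223 libraries. PAP-1 libraries were at 23.3, 53.2 and 32.6 CPM, PBS libraries at 44.0, 64.9 and 58.8 CPM, and Control libraries at 55.4, 58.0 and 56.1 CPM. The groups overlapped apart from PAP-1, which lay below Control. No comparison with PBS passed: the difference was 0.32 for ShK-223 (95% interval -0.44 to 1.07) and -0.62 for PAP-1 (-1.38 to 0.14).

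Counted over the family, 4 of the 9 genes (44.4%) were called in ShK-223 against PBS, 3 higher and 1 lower, beside 39.1% of all 15061 genes tested (18.8% higher and 20.3% lower). In PAP-1 against PBS, 6 of 9 (66.7%) were called, 3 higher and 3 lower, beside 43.7% of all genes (21.1% higher and 22.6% lower). With 9 genes, these shares are not read as an excess over the background. The median log2 fold change of the 9 was 0.32 and 0.25 in these comparisons, beside -0.01 and -0.01 over all genes. Both comparisons share the PBS libraries. In PBS against Control, 1 of 9 was called (11.1%), which was lower, beside 5.02% of all genes (0.412% higher and 4.61% lower).

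The counts changed with the libraries left out and with added terms. Without Control 2 and PAP-1 1, 6 of 9 subunits were called in PBS against Control beside 47.8% of all genes: Kcna1 (0.75, SE 0.15) and Kcna2 (0.71, SE 0.17) were higher in PBS, and Kcna4 (-2.61, SE 0.25), Kcna5 (-2.78, SE 0.68), Kcna6 (-0.37, SE 0.08) and Kcnab2 (-0.91, SE 0.15) lower. In that fit, ShK-223 differed from Control by -0.42 for Kcna4 (SE 0.24) and 0.14 for Kcna3 (SE 0.23), and no subunit was called against Control for either blocker. With the cerebellar index as a term, 0 subunits and 0% of all genes were called by edgeR in either blocker against PBS, with 673 and 1458 genes at an unadjusted p under 0.05 for ShK-223 and PAP-1. The Kcnab1 difference in PAP-1 against PBS was then -0.78 (SE 0.25, adjusted p = 0.415), larger than the -0.54 without the term.

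With batch as a term, 0 subunits and 0.0266% of all genes were called in ShK-223 against PBS. The differences there were -0.70 for Kcna1 (edgeR adjusted p = 0.0931), 1.90 for Kcna4 (adjusted p = 0.0785), 1.02 for Kcnab2 (adjusted p = 0.0689) and 0.38 for Kcna3 (adjusted p = 0.267). In PAP-1 against PBS, 4 of 9 subunits (Kcna1, Kcna4, Kcnab1 and Kcnab2) and 18.3% of all genes were called with the batch term. Kcna2 (-0.70, adjusted p = 0.0731) and Kcna3 (0.50, adjusted p = 0.134) lost their calls. In PBS against Control, Kcna4 differed by -1.94 with the batch term (adjusted p = 0.193).

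The composition of alpha transcripts, on the scale of CPM per kb, differed between PBS and both treated groups in the same direction as the single genes. Kcna1 and Kcna2 made up 33.4% ± 0.925 and 50.1% ± 0.732 (SD, n = 3) of the summed level in PBS. In ShK-223 they made up 24.4% ± 1.73 and 45.7% ± 3.22, and in PAP-1 22.2% ± 1.65 and 41.6% ± 4.75. Kcna6 made up 13.4% ± 1.13 in PBS, 18.7% ± 3.98 in ShK-223 and 23.0% ± 2.25 in PAP-1. In Control, Kcna1, Kcna2 and Kcna6 made up 26.5% ± 3.41, 42.65% ± 8.18 and 18.8% ± 4.39. Control 2 was at 30.5%, 51.9% and 13.8%, with Kcna2 above every PBS library and Kcna6 inside the PBS range.

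The minor subunits Kcna3 and Kcna4 took more of the total in the ShK-223 and PAP-1 libraries than in PBS. Kcna4 made up 1.29% ± 0.627 in PBS, 7.28% ± 0.664 in ShK-223 and 7.95% ± 0.518 in PAP-1, and Kcna3 made up 1.33% ± 0.104, 2.61% ± 0.342 and 2.99% ± 0.784. In Control the Kcna4 share was 7.15% ± 4.47, a spread set by Control 2, the lowest Control library at 2.11%. These shares were not tested, because the genes behind them were.

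**Figure D3:**
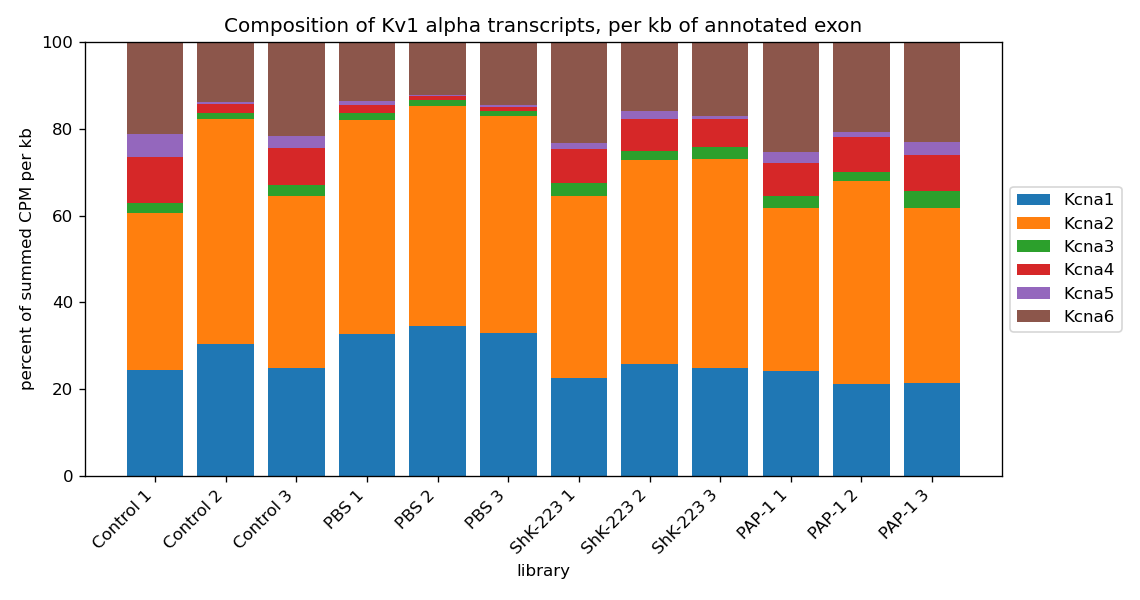
Share of each Kv1 alpha gene in the summed CPM per kb of the 6 alpha genes (y axis, percent), 1 stacked bar per library. The Kcna4 share is 0.917% to 2.02% in PBS and 2.11% in Control 2, and the bars of the other libraries carry a visibly wider Kcna4 band.

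Sums of subunits, and the ratios of Kcnab2 to Kcna2 and of Kcna2 to Kcna4, put Control 2 with PBS as well. Summed CPM of the 6 alpha genes was 760 to 897 in PBS, 827 in Control 2, and 472 to 687 in the other 8 libraries. Summed CPM of the 3 beta genes was 406 to 414 in PBS, 441 in Control 2, and 530.3 to 783 in the others. The count ratio of Kcnab2 to Kcna2 was 0.360 to 0.496 in PBS, 0.474 in Control 2 and 1.19 to 1.56 in the others. The count ratio of Kcna2 to Kcna4 was 60.4 to 134.5 in PBS, 60.6 in Control 2 and 8.40 to 17.9 in the others. By contrast, the ratio of Kcna2 to Kcna1 did not put Control 2 with PBS. It was 3.683 to 3.774 in PBS, 4.242 in Control 2, and 3.707 and 3.999 in Control 1 and 3. Every treated library lay above every PBS library, at 4.525 to 4.802 in ShK-223 and 3.882 to 5.524 in PAP-1.

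**Figure D4:**
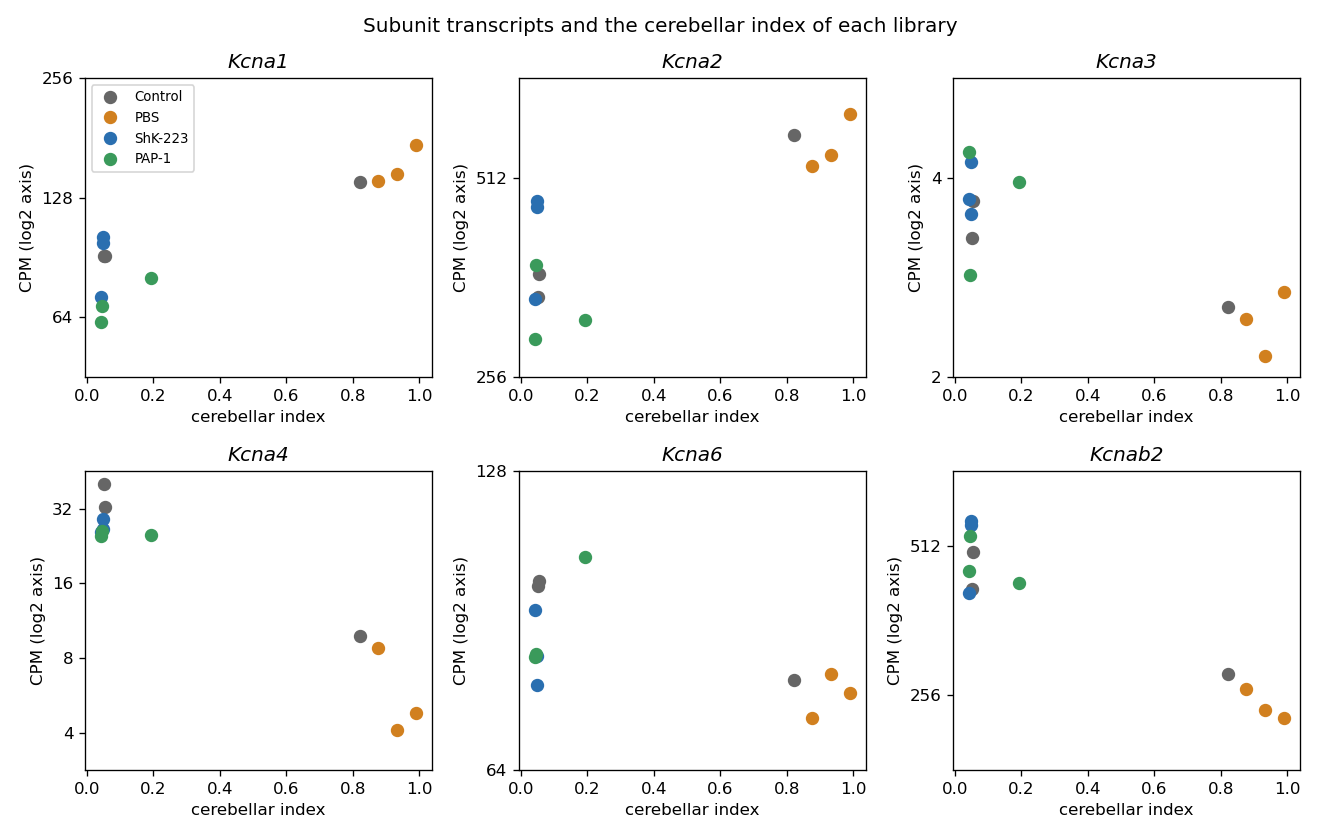
Level of 6 of the genes (CPM on a log2 axis) against the cerebellar index of the library (x axis, no unit), 1 point per library coloured by group. The 4 libraries with an index of 0.822 to 0.990 hold higher Kcna1 and Kcna2 and lower Kcna3, Kcna4 and Kcnab2 than the 7 with an index under 0.1, and Kcna6 overlaps between them.

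Read by cerebellar index instead of by group, 5 of the 9 genes did not overlap between the 4 libraries of high index and the 7 with an index under 0.1. They were Kcna1, Kcna2, Kcna3, Kcna4 and Kcnab2, and this is a description with no test. How large a share of all genes did not overlap in this split was not computed. The 5 are therefore not read as a trait of the family. Kcna1 was at 140.3 to 174 CPM in the former and 62.2 to 102.3 CPM in the latter, and Kcna4 at 4.12 to 9.82 and 24.9 to 40.2 CPM. Kcna5, Kcna6, Kcnab1 and Kcnab3 overlapped. With 3 of the 4 high-index libraries in PBS and none in ShK-223, cerebellar content and the contrast of ShK-223 with PBS cannot be told apart here. Control 2 is the only high-index library outside the group labelled PBS.

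The 2 blockers did not differ from each other for any subunit after adjustment, in a comparison in which 0% of all genes were called by edgeR, 684 of 15061 had an unadjusted p under 0.05, DESeq2 called 5 and limma-voom 0. The largest difference was in Kcnab3, 0.94 higher on the log2 scale with ShK-223 than with PAP-1 (SE 0.34, 95% interval 0.17 to 1.70, edgeR unadjusted p = 0.0206, adjusted p = 0.984). Kcnab1 was 0.40 higher (SE 0.14, 0.09 to 0.71, unadjusted p = 0.0164, adjusted p = 0.984). For the target gene Kcna3 the difference was 0.04 (95% interval -0.44 to 0.52), and for Kcna4 it was 0.10 (-0.82 to 1.01). Neither dose nor duration is stated in the sources used here, so the groups may not be matched in either. Batch B holds ShK-223 2, PAP-1 1 and PAP-1 3, and within it the difference was 1.64 for Kcnab3 and 0.77 for Kcnab1. Of 6 oligodendrocyte markers, 5 had an edgeR unadjusted p under 0.05 between the blockers and 0 were called (median log2 fold change 0.86). They summed to 2948, 5826 and 5240 CPM in ShK-223 1 to 3 and to 1813, 3586 and 2040 CPM in PAP-1 1 to 3. The sums were 3813 to 7168 CPM in PBS and 4225 to 5878 CPM in Control. The part of oligodendrocyte content in Kcnab3 was not tested.

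Against Control, 0% of all genes were called by edgeR for either blocker, with 1027 genes at an unadjusted p under 0.05 for ShK-223 and 2290 for PAP-1, and with 10 and 381 called by DESeq2 and none by limma-voom. No subunit reached an unadjusted p of 0.05 in ShK-223 against Control. In PAP-1 against Control, Kcnab1 differed by -0.60 (SE 0.14, unadjusted p = 0.00136, edgeR adjusted p = 0.195) and Kcna1 by -0.61 (SE 0.19, unadjusted p = 0.00919, adjusted p = 0.226). DESeq2 called the Kcnab1 difference. Kcnab1 is thus the gene whose PAP-1 libraries lay lowest against each of the other 3 groups, but the difference from ShK-223 and from Control did not pass in edgeR. The 8 striatal markers summed highest in Control 1, Control 3 and ShK-223 2 (1660, 1257 and 1085 CPM). Kcnab1 was at 123, 115 and 122 CPM there. The striatal sum was 147.9 to 560.3 CPM in the PAP-1 libraries, ShK-223 1 and ShK-223 3, beside 67.2 to 87.7 CPM of Kcnab1. PBS and Control 2 did not follow this, with sums of 195.2 to 348.1 CPM but Kcnab1 at 100.3 to 111 CPM. The part of striatal content in Kcnab1 was not tested.

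The other proteins of Kv1 complexes were read from a list of 18 genes. Alongside the channels, juxtaparanodal cell adhesion proteins hold Kv1 in place, the secreted LGI proteins and their ADAM receptors bind the complex from outside, and PSD-95 family scaffolds bind the tail of the alpha subunits. In ShK-223 against PBS, 3 of 18 were higher and 5 lower, where 39.1% of all genes were called (median log2 fold change -0.20, beside -0.01 over all genes). In PAP-1 against PBS, 3 were higher and 8 lower, where 43.7% of all genes were called (median -0.32, beside -0.01). None was called in the other 4 comparisons, in which 0 to 8 of the 18 had an unadjusted p under 0.05.

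Cntn2, the axonal adhesion protein TAG-1 of the juxtaparanode, was at 491 ± 14.6 CPM (SD, n = 3) in PBS, 205 ± 31.0 in ShK-223 and 156 ± 39.8 in PAP-1. Control libraries 1 to 3 were at 219, 442 and 234 CPM. It fell by 1.26 in ShK-223 against PBS (SE 0.27, edgeR adjusted p = 0.00827) and by 1.65 in PAP-1 (SE 0.27, adjusted p = 0.00279). Control 2 again lay beside PBS. Lgi4, a secreted protein that peripheral glia need to myelinate, fell by 0.88 (SE 0.16) and 1.09 (SE 0.16). Lgi1, whose human gene is mutated in a familial epilepsy, rose by 0.56 (SE 0.12) and 0.59 (SE 0.12). Dlg3, the scaffold SAP102, rose by 0.77 (SE 0.18) and 0.74 (SE 0.18), and Dlg4, which encodes PSD-95, by 0.70 (SE 0.17) and 0.73 (SE 0.17). Cntnap2, the Caspr2 partner of Cntn2, was not called in either, at 0.33 (SE 0.19) and 0.25 (SE 0.19).

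Genes of the axon initial segment and node of Ranvier, where other voltage-gated channels cluster, gave 3 higher and 1 lower of 9 in ShK-223 against PBS, and 3 higher and 4 lower in PAP-1 against PBS. The shares of all genes called were 39.1% and 43.7%, and the list's medians were -0.12 and -0.04, beside -0.01 and -0.01 over all genes. Kcnq3, a potassium channel subunit of the axon initial segment, rose by 1.74 (SE 0.33) in ShK-223 and by 1.39 (SE 0.33) in PAP-1. Sptbn4, the spectrin of these sites, fell by 0.34 (SE 0.08) and 0.44 (SE 0.08). The other Kv1 alpha genes, Kcna7 and Kcna10, had at most 2 and 5 reads in any library and were not tested.

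Genes whose level followed a subunit most closely over the 12 libraries were ranked by the mean absolute difference between standardised log2 CPM profiles, where 0 means identical profiles, among 12997 genes. The nearest to Kcna4 were Sfxn3 (0.109), Sh2d5 (0.109) and Elapor1 (0.115), and the nearest to Kcnab2 were Rnf220 (0.115), Adap1 (0.120) and Actr3b (0.141). Kcna1 lay nearest to Cd47 (0.114), Zkscan8 (0.129) and Dennd1b (0.131), and Kcna2 to Luzp1 (0.144), Cacnb4 (0.157) and Atp2a2 (0.165). Elapor1, for example, was at 9.98 to 19.9 CPM in PBS, 23.4 CPM in Control 2 and 47.2 to 66.4 CPM in the other 8 libraries. All of these share the libraries and their regional content.

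Kcna3, with 35 to 79 reads per library, had no neighbour as near, and the part of counting error in this was not tested. Its closest were Rtl6 (0.294), Nova2 (0.301), Ttc19 (0.313), Cracr2a (0.315) and Frg2f1 (0.322). The nearest to Kcna5 were Adap2 (0.234), Togaram2 (0.287) and Cd33 (0.287), to Kcna6 Polr2f (0.199), Tgif1 (0.248) and Adissp (0.259), to Kcnab1 Inppl1 (0.231), Ehhadh (0.260) and Krt10 (0.272), and to Kcnab3 Ppip5k2 (0.190), Pitpnc1 (0.219) and Rcan2 (0.257). Among the 9 themselves the nearest pairs were Kcna1 with Kcna2 (0.302) and Kcna4 with Kcnab2 (0.327), and Kcna3 lay nearest to Kcnab2 (0.466).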

How the data were processed

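The file the authors deposited holds raw counts by gene for 12 libraries. Per the submitters' processing notes, alignment used STAR 2.7.11a with GRCm38 (mm10) as the genome, and DESeq2 1.40.2 and R 4.3.2 were run. How reads were counted, on which strand and with which annotation was not stated in the sources used here. The 21643 rows include 42 with a repeated gene name, kept apart, and 2893 with 0 reads throughout. No pair of libraries agreed within sampling noise (chi-square per gene at least 7.34).

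Genes were filtered with filterByExpr (15061 left), scaled by TMM and tested in edgeR 4.0.16 (R 4.3.3) by the quasi-likelihood test on all 12 libraries with group as the term. Benjamini-Hochberg adjustment ran over all genes within each of 6 comparisons, with calls at 0.05. SE is the fold change over the root of F, and 95% intervals use the t distribution of the fit. CPM use TMM-scaled totals. Labels give each library its own mouse and 1 of 3 batch names, B, C and CH, whose meaning is not given; RNA integrity was 7.8 to 8.9, per the labels. Replicate numbers follow accession order. The alternatives were RLE and upper-quartile scaling, DESeq2 1.42.0, limma-voom (limma 3.58.1), no filter, a filter of 1 CPM in 3 libraries, batch, RNA integrity or the cerebellar index as a term, the compared groups alone, the fit without Control 2 and PAP-1 1, and leaving out each library. Tests were run on simulated counts first. Genes named are the 9 members, up to 4 of each pathway list by smallest p, and the 5 (Kcna3) or 3 nearest profiles among genes with mean log2 CPM of at least 1; Cntnap2 and Cd4 were named after their values were seen, and not every gene the rule allows is reported here. The members and lists were chosen with earlier results of these data known. Exon lengths and coordinates are from GENCODE M21 on GRCm38.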

Additional observations from a re-analysis of the deposited data

How the results depend on the processing

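The number of subunits called in ShK-223 against PBS was 4, and 0 with batch or with the cerebellar index as a term, and 2 (without PBS 2) to 5 when 1 library was left out. In PAP-1 against PBS it was 6, and 0 with the index as a term, and 4 to 7 when 1 library was left out. In PBS against Control it was 1; it was 3 in DESeq2, 0 in limma-voom, with batch, RNA integrity or the index as a term and in the compared groups alone, 6 without Control 2 and PAP-1 1, and 0 to 6 when 1 library was left out, with 6 reached without Control 2. In PAP-1 against Control it was 0, and 1 in DESeq2, and leaving out 1 library kept it at 0. ShK-223 against Control and against PAP-1 gave 0 under each alternative. The 1 reversal was Kcna1 in ShK-223 against PBS, 0.0279 with the index as a term. Of the fits of single called genes under an alternative, 200 kept the call and 52 lost it at the same sign. Kcna3 lost its call in both comparisons with no filter and with batch or the index as a term. For PAP-1 its call was also lost in limma-voom, in the compared groups alone and without Control 2 and PAP-1 1. Apart from the fits leaving out 1 library, the Kcna3 call held in 8 of 11 alternatives for ShK-223 and 5 of 11 for PAP-1. The cause of these losses was not tested. Kcna3 and Kcna5 are limited by depth, with at most 79 and 184 reads per library. No paired analysis was possible because the replicate numbers only follow accession order.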
